A study of Mus musculus with 27 samples.

Results

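Proteasome genes were described in the livers of 27 male C57BL/6J mice on 4 diets. The genes were all those of the array annotation whose symbol starts with Psma, Psmb, Psmc, Psmd or Psme, without pseudogenes and without Psmb8 and Psmb9. Of the 44 symbols, 42 had a value, against 18820 genes with a value in all, and the 42 passed the intensity minimum (above 20 on at least 5 arrays) that left 13603 genes for testing. Psma4 and Psme2b were represented only by probe sets that name several genes and have no value here.

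The mice came at 7 weeks of age, ate AIN-93G for 2 weeks, were put on their diets at 9 weeks and were killed at 12 months. The C group (7 mice) ate the AIN-93W control diet and the MF group (7 mice) a medium fat AIN-93W diet with 25% of its energy from fat. The CR group (6 mice) got the AIN-93W-CR diet in daily portions at 30% caloric restriction, a diet that per the methods is richer in vitamins and minerals than AIN-93W, and the INT group (7 mice) switched every week between the MF diet ad libitum and 40% caloric restriction of AIN-93W. INT mice were sampled in an ad libitum MF week, so no liver of a restricted INT week was measured. All mice were fasted for 4 h, given carboxymethyl cellulose by gavage and fasted for 6 h more, so each comparison is between fasted livers. Per the methods, CR portions came each day at a set afternoon hour, while the other groups had food ad libitum before the fast. The time since the last meal may thus differ between CR and the other groups, and its part was not tested. The question was whether restriction, medium fat or weekly switching between them changed the liver RNA of the proteasome.

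The 26S proteasome degrades proteins tagged with ubiquitin. Its 20S core is a barrel of alpha rings, which gate the entry, and beta rings, in which Psmb5, Psmb6 and Psmb7 encode the subunits that cut, and its 19S cap holds a base of ATPases (Psmc genes) and further subunits (Psmd genes) that bind, deubiquitinate and unfold substrates. The core can instead bind other activators: PA28 alpha and beta (Psme1, Psme2), known from antigen processing, the nuclear PA28 gamma (Psme3) and PA200 (Psme4). When proteasome activity falls short, the transcription factor NFE2L1 raises the subunit genes together.

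Values were log2 intensities of whole liver, normalized over all arrays by the authors. The median over all probe sets lay between 5.21 and 5.27 on the 27 arrays. Arrays of replicates 1 to 4 (16 arrays) and 5 to 7 (11 arrays) differed in their spread over probe sets, with an interquartile range of 3.63 ± 0.03 (SD, n = 16) and 3.72 ± 0.03 (SD, n = 11), and each of the 2 array sets held every diet, with 2 CR-fed mice in the second. In whole tissue, fewer cells of a type and less RNA per cell cannot be told apart. The hepatocyte list had all 10 genes above the minimum, and its summed log2 level lay between 16.4 and 16.6 in every diet group.

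The genes of the 26S proteasome themselves differed little between diets. Of the 30 measured subunit genes, 0 were called against C and 0 against MF in the CR-fed mice (limma, adjusted p under 0.05; 7 with an unadjusted p under 0.05 in each), and 1, Psmd3, was lower in CR than in INT (5 with an unadjusted p under 0.05). Tukey's test, which the methods use and which does not adjust over genes, called Psma6 and Psmb1 lower and Psmc5 higher against C, Psmc6 and Psmd14 lower against MF, and Psma6, Psmc6 and Psmd3 lower against INT. The calls that recurred lay among the activators, with Psme1 higher and Psme3 lower in CR-fed mice than in each of the other groups. In CR against C, 2 of the 42 genes were called, where 17.5% of all genes tested were. In CR against MF, 2 of 42 were called against a background of 19.8%, and in CR against INT 3 of 42 against 15.0%. The 3 comparisons share the same CR-fed mice. Between the C, MF and INT groups no proteasome gene was called, nor was any other gene (background of 0%). At an unadjusted p under 0.05, the members numbered 10, 12 and 9 in CR against C, MF and INT, and 0, 2 and 0 in INT against C, INT against MF and MF against C. Over all 13603 genes the first 3 comparisons gave 4017, 4307 and 3780 (29.5%, 31.7% and 27.8%), and the last 3 gave 922, 1479 and 464.

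**Figure D1:**
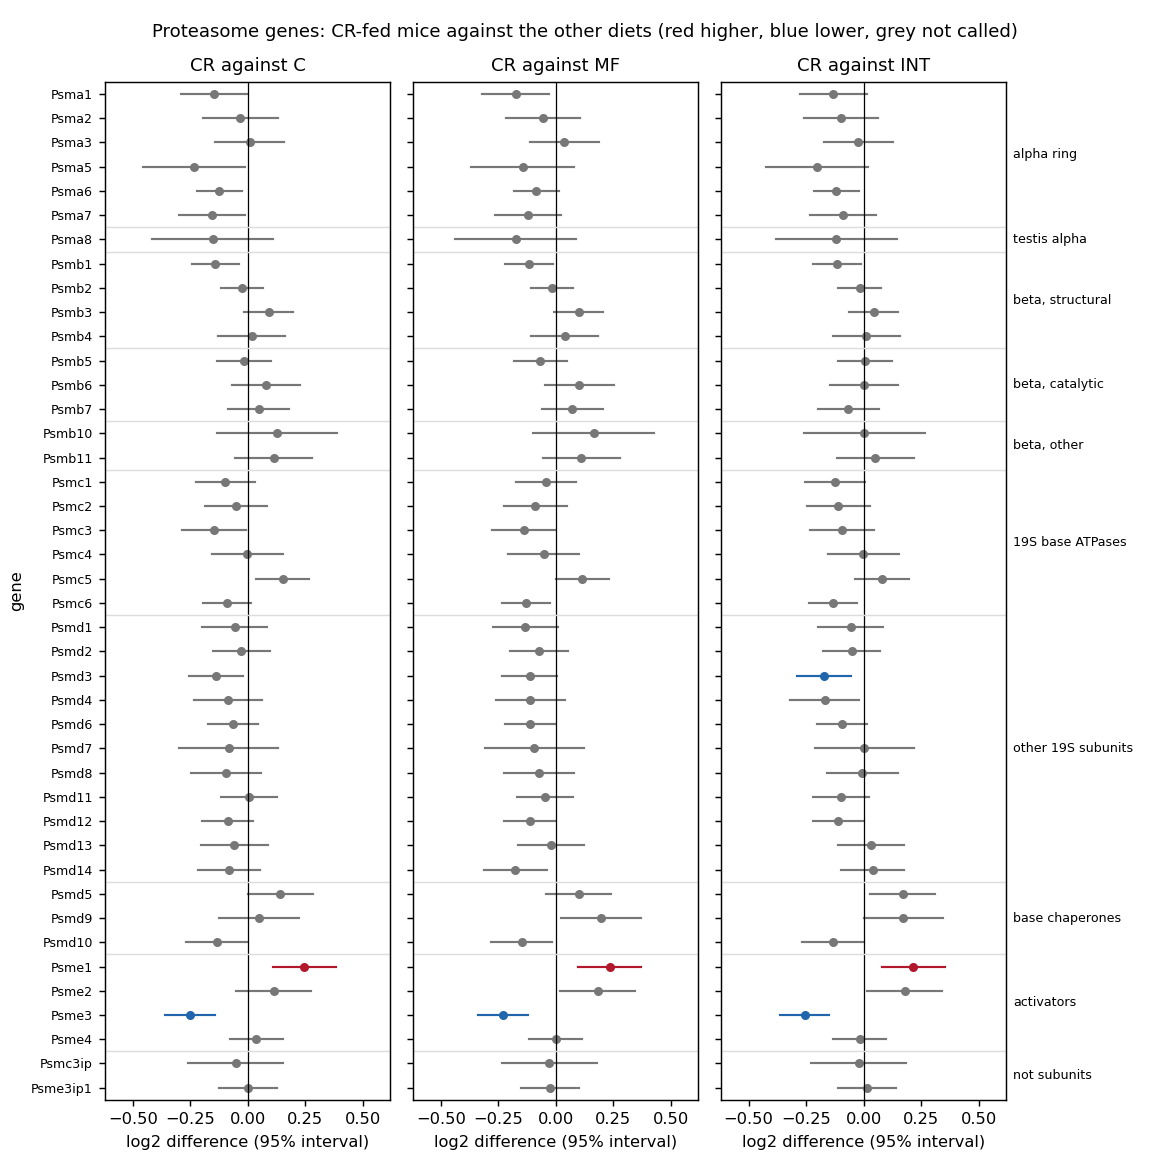
Log2 difference (x axis, with its 95% interval) of each of the 42 proteasome genes (y axis, by role) in CR-fed mice against the C, MF and INT groups. Red and blue points passed an adjusted p of 0.05 in limma and grey points did not: Psme1 and Psme3 are coloured in all 3 panels and Psmd3 against INT, and every interval lies within ±0.5.

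On the probe set kept per gene, the sizes bounded what could have gone unseen. In all 6 comparisons the 95% interval of each of the 42 genes lay within ±0.5 on the log2 scale. The widest bounds were -0.46 (CR against C, Psma5) and 0.43 (CR against MF, Psmb10). These bounds do not cover the other probe set of Psma5, which gave -0.37 ± 0.08 (SE) in CR against INT and was called. Whether that probe set reads Psma5 alone was not tested. Intervals within ±0.25 were had by 26, 25 and 28 genes in CR against C, MF and INT and by 37, 36 and 38 genes in INT against C, INT against MF and MF against C. The median size of the difference in CR against C was 0.0863 over the proteasome genes and 0.110 over all genes tested, and the corresponding values were 0.106 and 0.116 against MF and 0.0923 and 0.107 against INT. A log2 difference above 0.25 in either direction was seen for 19.5% of all genes in CR against C, and for 1 of the 42. The spread between mice of a diet was also narrower, with a median SD of 0.113 over the 30 subunit genes, from 0.0619 (Psmb2) to 0.203 (Psma5), and of 0.160 over all genes.

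Most subunit genes lay slightly lower in CR-fed mice, by amounts that were not called gene by gene. Of the 30 genes, 23 were below 0 in CR against C with a median log2 difference of -0.06, 24 against MF with a median of -0.08, and 22 against INT with a median of -0.08. Over all genes tested 48.9%, 50.6% and 49.8% were below 0 in these comparisons, and each median was 0.00. Over the genes with a mean intensity above 50 the medians were -0.01, -0.02 and -0.02. The mean over the 30 genes, relative to the 27-mouse mean of each gene, was 0.009 ± 0.062 (SD, n = 7) in C, 0.015 ± 0.049 (n = 7) in MF, 0.016 ± 0.059 (n = 7) in INT and -0.046 ± 0.062 (n = 6) in CR. The CR-fed mice ran from -0.115 (replicate 4) to 0.053 (replicate 5) and overlapped every other group. This mean moved with the array set: it was 0.079, 0.071 and 0.086 higher in replicates 5 to 7 than in 1 to 4 for C, MF and CR, and 0.005 lower for INT. Within replicates 1 to 4 it was -0.075 in CR, -0.025 in C, -0.016 in MF and 0.018 in INT. Within 5 to 7 it was 0.011 in CR, 0.054 in C, 0.056 in MF and 0.013 in INT, so CR and INT were nearly equal there.

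**Figure D2:**
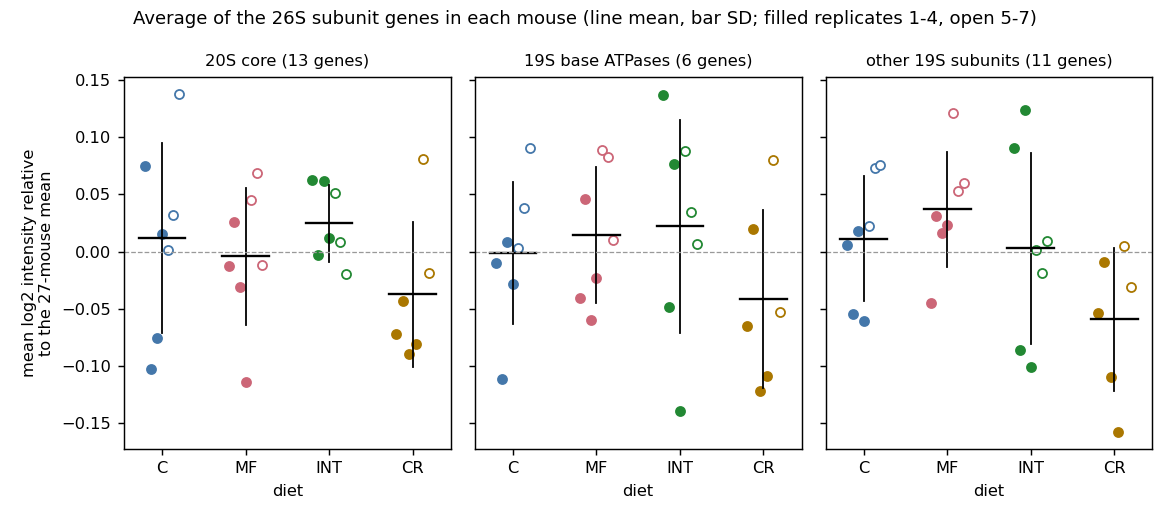
Mean log2 intensity over the 13 genes of the 20S core, the 6 base ATPases and the 11 other 19S subunits (y axis, relative to the mean of the 27 mice) in each mouse by diet (x axis). Lines are diet means and bars SD, filled points are replicates 1 to 4 and open points replicates 5 to 7: the CR mean is the lowest in each panel, and its points overlap those of the other diets.

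The subunit genes varied together from mouse to mouse within a diet. With the diet means removed, the median Pearson r over the 435 pairs of subunit genes was 0.251 across the 27 mice, and 82.3% of pairs were above 0. Over pairs of all genes tested the median was 0.00487, with 50.7% above 0. With the means of the 2 array sets removed as well, the median over subunit pairs was 0.201 and 73.1% were above 0. With only the diet means removed, Psmb4, a structural beta subunit, and Psmc2, a base ATPase, had the highest mean r with the other subunits (0.399 and 0.398), and Psmd8, a lid subunit, had the lowest (-0.0792). With the array set means removed as well, Psmb4 and Psmc2 stayed highest (0.342 and 0.341), and Psmb5 was the lowest (-0.0456). These are descriptions over genes that share the same arrays and carry no test.

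In the alpha ring, which gates the core, 5 of the 6 measured genes were lower in CR than in C and none was called. Their log2 differences ran from -0.23 for Psma5 to 0.01 for Psma3, with a median of -0.14, and 3 had an unadjusted p under 0.05. Psma5 had a second probe set, which did not give the same call. The kept one, of higher mean, gave -0.23 against C (adjusted p = 0.148), -0.14 against MF (adjusted p = 0.393) and -0.20 against INT (adjusted p = 0.230). The other one gave -0.25 (adjusted p = 0.0332), -0.22 (adjusted p = 0.0598) and -0.37 (adjusted p = 0.00177), so the calls against C and INT came from that probe set only. The alternate probe sets of Psma3, Psmb1, Psmb3, Psmc1 and Psmd2 gave no call. For Psma3, Psmb3, Psmc1 and Psmd2 the values are uncertain in that the kept probe set may also read a processed copy of the gene elsewhere in the genome, which was not tested here. The same holds for the other probe set of Psma5, so its calls are not read as calls of Psma5 itself.

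The 3 catalytic genes of the beta ring were not called in any comparison. Psmb5, the chymotrypsin-like subunit, had a lowest, median and highest log2 intensity of 11.0, 11.1 and 11.3 in C, 11.1, 11.2 and 11.3 in MF, 11.1, 11.1 and 11.2 in INT and 11.1, 11.1 and 11.2 in CR. Its log2 difference was -0.02 ± 0.06 (SE) in CR against C, -0.07 ± 0.06 against MF and 0.01 ± 0.06 against INT. Psmb6, the caspase-like subunit, gave 0.08 ± 0.07, 0.10 ± 0.07 and 0.00 ± 0.07, and Psmb7, the trypsin-like subunit, gave 0.05 ± 0.06, 0.07 ± 0.06 and -0.07 ± 0.06. The groups overlapped for each of the 3 genes, and no adjusted p of theirs in these comparisons was under 0.357 (limma). In INT against C the differences were -0.02 for Psmb5, 0.08 for Psmb6 and 0.11 for Psmb7, in INT against MF -0.07, 0.10 and 0.14, and in MF against C 0.05, -0.02 and -0.03. None of these was called either. The thymus form Psmb11 and the inducible catalytic Psmb10 were 0.11 and 0.13 above C in CR-fed mice (adjusted p = 0.559 for Psmb10), and Psma8, the testis form of an alpha subunit, was 0.15 below.

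The base ATPases unfold the substrate. In CR against C, 5 of the 6 lay below 0 on the kept probe sets, and Psmc5 lay above it at 0.15 ± 0.06 (SE; adjusted p = 0.0612). For Psmc1 this sign rests on the kept probe set, which gave -0.097 against C. Its other probe set, of nearly the same mean, gave 0.001. The lowest, median and highest log2 intensity of Psmc5 were 7.15, 7.22 and 7.34 in C and 7.30, 7.40 and 7.50 in CR, so the 2 groups overlapped narrowly. Of the 11 other 19S subunit genes, 10 were below 0 in CR against C, 11 against MF and 8 against INT, with medians of -0.08, -0.11 and -0.06.

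Psmd3, which encodes a scaffold subunit of the 19S lid, fell in CR against INT by 0.17 on the log2 scale (SE 0.06, adjusted p = 0.0406). Its log2 intensity ran from 8.74 over a median of 8.85 to 8.96 in CR-fed mice and from 8.80 over 9.02 to 9.14 in INT mice, and 1 INT mouse (replicate 4) lay among the CR-fed mice. Against C and MF the differences were -0.14 (adjusted p = 0.0965) and -0.11 (adjusted p = 0.176), not called. The call against INT was lost when any of 9 of the 13 mice of the 2 groups was left out, with adjusted p up to 0.101.

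Psmd14, the deubiquitinase of the lid, had the smallest p of the members in INT against MF. Its log2 intensity ran from 9.50 over a median of 9.73 to 9.91 in INT mice and from 9.85 over 9.91 to 10.1 in MF mice, a difference of -0.21 ± 0.06 (SE; unadjusted p = 0.00222, adjusted p = 0.327). Psmb7 followed it (unadjusted p = 0.0328). Tukey's test called Psmd14 in this comparison and no other member. In INT against C the smallest p were those of Psmd14 (-0.12, unadjusted p = 0.0635) and Psmb7 (unadjusted p = 0.0765), and in MF against C those of Psmd9 (-0.15, unadjusted p = 0.0829) and Psmd14 (0.09, unadjusted p = 0.160).

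The 3 chaperones that build the 19S base did not move one way. Psmd5 was 0.14 above C in CR-fed mice, Psmd9 0.05 above and Psmd10 0.13 below, and none was called in any comparison. Of the 2 symbols that fit the naming rule without being subunits, Psmc3ip, a meiotic recombination factor, was above the minimum on 5 of 27 arrays only, and Psme3ip1, a partner of PA28 gamma, differed by 0.00 between CR and C.

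The activators held the members of smallest p in each comparison with CR. Their start regions are shown because Psme1 and Psme3 were the genes that rose and fell and Psme2 is the partner of Psme1 in the same ring. Each window is from RefSeq on GRCm38.p6, 250 bases before to 50 after the start of the gene, 5′ to 3′ on the strand of the gene. Capitals mark in Psme1 the core of the interferon-stimulated response element and in Psme3 a CCAAT box, both on the opposite strand. Psme1 lies at chr14:55578244-55578543 (plus strand), Psme2 at chr14:55591052-55591351 (minus strand, the first of its 2 windows) and Psme3 at chr11:101315963-101316262 (plus strand).
Psme1: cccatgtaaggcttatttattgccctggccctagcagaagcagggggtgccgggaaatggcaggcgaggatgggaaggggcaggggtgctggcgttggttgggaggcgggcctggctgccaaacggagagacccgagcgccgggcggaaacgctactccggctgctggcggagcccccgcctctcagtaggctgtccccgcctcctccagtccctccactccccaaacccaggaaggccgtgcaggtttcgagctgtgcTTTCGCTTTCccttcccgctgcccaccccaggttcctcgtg
Psme2: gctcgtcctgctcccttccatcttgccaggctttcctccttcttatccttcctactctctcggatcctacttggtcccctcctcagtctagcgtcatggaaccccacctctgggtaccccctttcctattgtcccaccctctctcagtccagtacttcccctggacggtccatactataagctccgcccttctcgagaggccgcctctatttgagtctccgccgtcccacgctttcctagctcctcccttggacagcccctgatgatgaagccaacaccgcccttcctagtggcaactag
Psme3: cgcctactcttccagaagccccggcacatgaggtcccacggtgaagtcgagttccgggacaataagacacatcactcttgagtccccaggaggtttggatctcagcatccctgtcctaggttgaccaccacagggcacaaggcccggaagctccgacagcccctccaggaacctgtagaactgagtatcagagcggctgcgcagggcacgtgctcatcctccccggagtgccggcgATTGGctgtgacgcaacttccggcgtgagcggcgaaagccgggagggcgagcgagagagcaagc

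Motifs were searched on both strands in the 41 windows of 37 of the 44 genes and in all 32851 windows of the same length. The core of the interferon response element (GAAA, any 2 bases and GAAA) was found in 4 of the 41 windows (9.76%; Psmb3, Psmd4, Psmd9 and Psme1) and in 3.44% of all windows. In Psme1 it begins at base 10 after the start. The antioxidant response element core TGACNNNGC, a site that NFE2L1 and NFE2L2 can bind, was in 6 of 41 (14.6%; Psmb5, Psmb6, Psmc6, Psmd12, Psmd9 and Psme4) and in 12.4% of all, and CCAAT in 15 of 41 (36.6%) and 37.4%. The GC box GGGCGG was in 23 of 41 (56.1%) and 35.7%, the gamma-activated site core TTCNNNGAA in 1 of 41 (2.44%, Psmd2) and 8.30%. The Psme2 window holds GC boxes and none of the other 4. These are matches of letters in these windows and no sites of binding.

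Psme1 rose in CR-fed mice. Its log2 intensity had a lowest, median and highest value of 9.04, 9.26 and 9.30 in C, 9.03, 9.18 and 9.52 in MF, 9.16, 9.22 and 9.38 in INT and 9.29, 9.48 and 9.58 in CR. Among the CR-fed mice, 4 of 6 were above every C and INT mouse, and MF replicate 4 lay among them. The difference was 0.25 ± 0.07 (SE) against C (1.19-fold, adjusted p = 0.0109), 0.23 ± 0.07 against MF (1.18-fold, adjusted p = 0.0136) and 0.22 ± 0.07 against INT (1.16-fold, adjusted p = 0.0285). Within replicates 1 to 4 the differences were 0.27, 0.20 and 0.18 and within replicates 5 to 7 0.23, 0.29 and 0.27, none of them called. The call against INT was lost without any 1 of CR replicates 2, 4 or 6 or INT replicates 3, 5 or 7 (adjusted p up to 0.0788), and the call against MF was lost when only the mice of those 2 diets were fitted.

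Psme3 fell in CR-fed mice. Its lowest, median and highest log2 intensity were 9.63, 9.77 and 9.81 in C, 9.60, 9.74 and 9.84 in MF, 9.66, 9.74 and 9.87 in INT and 9.33, 9.50 and 9.63 in CR. The highest CR-fed mouse (replicate 4) was at the level of the lowest C mouse, and MF replicate 1 lay below it. Psme3 fell by 0.25 on the log2 scale against C (SE 0.05, adjusted p = 0.00114), by 0.23 against MF (adjusted p = 0.00241) and by 0.26 against INT (adjusted p = 0.00103), or 0.840, 0.853 and 0.837 of the other group's level. All 3 calls held without any single mouse, with adjusted p up to 0.00856. Within replicates 1 to 4 the differences were -0.21, -0.16 and -0.23, of which the last was called, and within replicates 5 to 7 they were -0.32, -0.34 and -0.31.

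**Figure D3:**
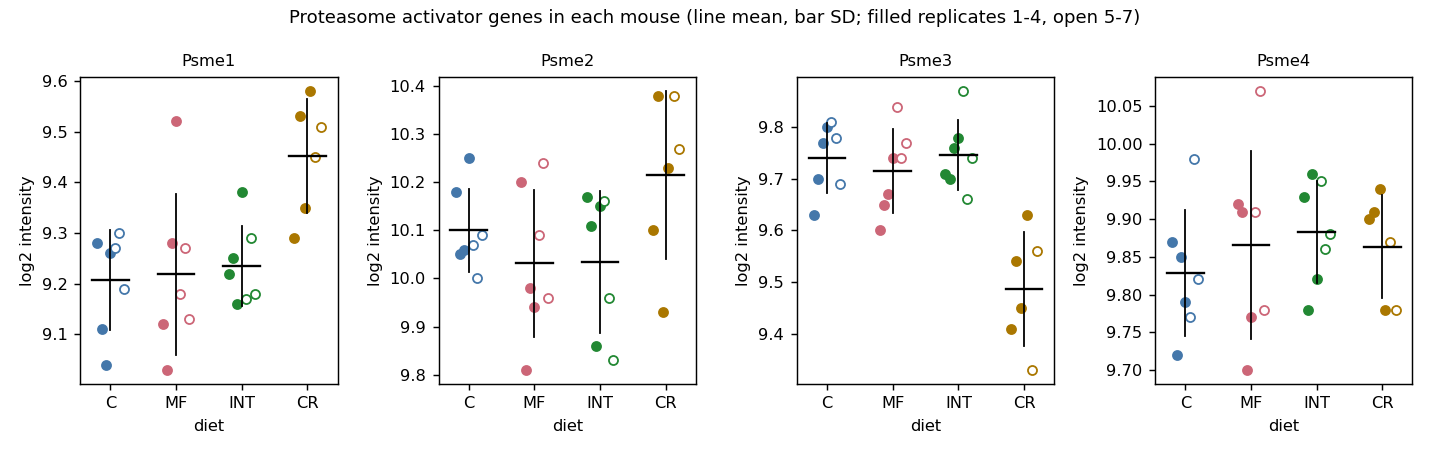
Log2 intensity (y axis) of the activator genes Psme1, Psme2, Psme3 and Psme4 in each mouse by diet (x axis), with means (lines) and SD (bars). Filled points are replicates 1 to 4 and open points 5 to 7: the CR-fed mice sit high in Psme1 (9.29 to 9.58) and low in Psme3 (9.33 to 9.63) and overlap the other diets in Psme2 and Psme4.

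Psme2, whose product forms the PA28 ring together with that of Psme1, was 0.11 ± 0.08 (SE) above C (adjusted p = 0.367), 0.18 ± 0.08 above MF (adjusted p = 0.108) and 0.18 ± 0.08 above INT (adjusted p = 0.137). Its lowest, median and highest log2 intensity were 9.93, 10.25 and 10.38 in CR-fed mice and the median in C was 10.07, with overlapping values, and whether it moved apart from Psme1 was not tested. Psme4 differed by 0.04, 0.00 and -0.02 in CR against C, MF and INT.

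**Figure D4:**
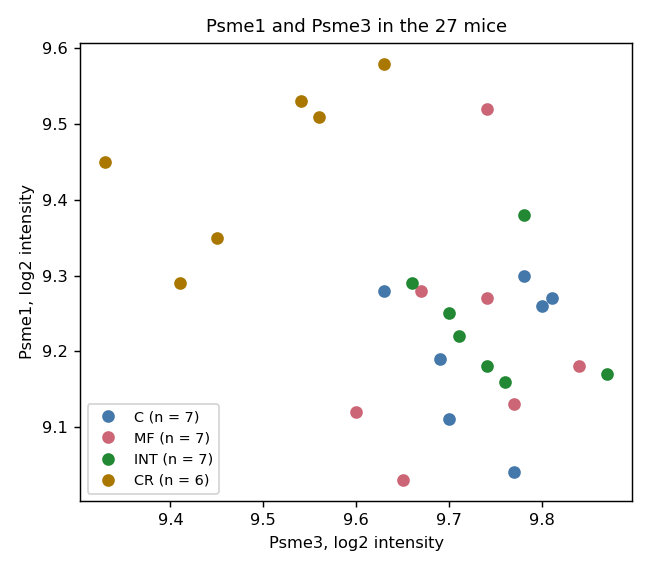
Log2 intensity of Psme1 (y axis) against that of Psme3 (x axis) in each of the 27 mice, coloured by diet. The 6 CR-fed mice take the upper left, with Psme3 at or below 9.63 and Psme1 at or above 9.29, and the C, MF and INT mice lie mixed with each other, with MF replicate 1 at 9.60 and C replicate 1 at 9.63 on the Psme3 axis, near the highest CR mouse.

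Other genes of the pathway were taken from lists of genes that work with the proteasome, of which 60 passed the minimum. Of these, 3 were higher and 10 lower in CR against C, 1 and 14 against MF and 3 and 9 against INT, and 0 in the comparisons among C, MF and INT, where 1, 6 and 1 had an unadjusted p under 0.05 in INT against C, INT against MF and MF against C. By direction the background in CR against C was 8.46% higher and 9.05% lower, against MF 8.57% and 11.2%, and against INT 6.62% and 8.37%.

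Some genes of core assembly and inhibition fell in CR-fed mice. In that list of 8 measured genes, 3 fell in each of the 3 comparisons with CR. Psmg2, a chaperone that starts the alpha ring, had a lowest, median and highest log2 intensity of 7.54, 7.63 and 7.87 in C, 7.53, 7.64 and 7.83 in MF, 7.41, 7.56 and 7.70 in INT and 7.02, 7.22 and 7.63 in CR. It fell by 0.41 (SE 0.08, adjusted p = 0.000528), 0.39 (adjusted p = 0.000726) and 0.30 (adjusted p = 0.00895) against C, MF and INT, and 5 of the 6 CR-fed mice were below every mouse of the other diets. Pomp, the maturation protein on which the beta rings form, fell by 0.26 (SE 0.06, adjusted p = 0.00482), 0.21 (adjusted p = 0.0167) and 0.20 (adjusted p = 0.0306). Psmf1, which encodes the inhibitor PI31, fell by 0.25 (SE 0.07, adjusted p = 0.0184), 0.31 (adjusted p = 0.00339) and 0.22 (adjusted p = 0.0430). Psmg4, a further alpha ring chaperone, was higher in CR than in INT by 0.25 (adjusted p = 0.0182; 0.0567 without CR replicate 6). The calls of Pomp and Psmf1 against INT were lost when any of 7 or any of 9 of the 13 mice was left out (adjusted p up to 0.0804 and 0.128), and that of Psmf1 against C without CR replicate 4 (adjusted p = 0.0629). All 3 genes were also lower in CR within each array set, by 0.08 (Pomp against INT, replicates 5 to 7) to 0.50 (Psmg2 against MF, replicates 1 to 4).

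Among 7 immunoproteasome and peptide loading genes, 1 rose and 3 fell against C and against MF, and 1 rose and 2 fell against INT. Psmb9, the inducible subunit that takes the place of Psmb6, fell by 0.80 (SE 0.18, adjusted p = 0.00204), 0.64 (adjusted p = 0.0116) and 0.56 (adjusted p = 0.0332) in CR against C, MF and INT. Its log2 intensity ran from 7.04 over a median of 7.36 to 8.19 in CR-fed mice and from 7.81 over 8.17 to 8.79 in C, and the highest CR-fed mouse (replicate 5) lay in the range of the other diets. Psmb8, which takes the place of Psmb5, differed by -0.27 (adjusted p = 0.120), -0.14 (adjusted p = 0.450) and -0.09 (adjusted p = 0.676). Tap1, which carries peptides into the endoplasmic reticulum, fell by 0.78, 0.73 and 0.76 (SE 0.15, adjusted p = 0.000359, 0.000652 and 0.000566). Tap2, with which Tap1 forms that transporter, fell by 0.30 against C and by 0.31 against MF (adjusted p = 0.0254 and 0.0172) and was not called against INT. Tapbp, which holds the transporter to the class I molecule, rose by 0.28, 0.26 and 0.34 (SE 0.07, adjusted p = 0.00600, 0.00899 and 0.00135). The call of Psmb9 against INT was lost when any of 8 of the 13 mice was left out (adjusted p up to 0.0922), that of Tap2 against C without C replicates 4 or 7 or CR replicates 2 or 4 (adjusted p up to 0.0833), and that of Tap2 against MF without CR replicates 2 or 4 (adjusted p up to 0.0593). Within replicates 5 to 7, with 2 CR-fed mice, Psmb9 was lower by 0.35, 0.14 and 0.32, and within replicates 1 to 4 by 1.06, 0.93 and 0.65. Tap1 was lower by 0.37, 0.26 and 0.53 within replicates 5 to 7, not called, and by 1.01, 1.00 and 0.84 within 1 to 4, called each time. Tap2 was lower by 0.13 against C and 0.07 against MF within 5 to 7, not called, and by 0.37 and 0.44 within 1 to 4, where only the latter was called.

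**Figure D5:**
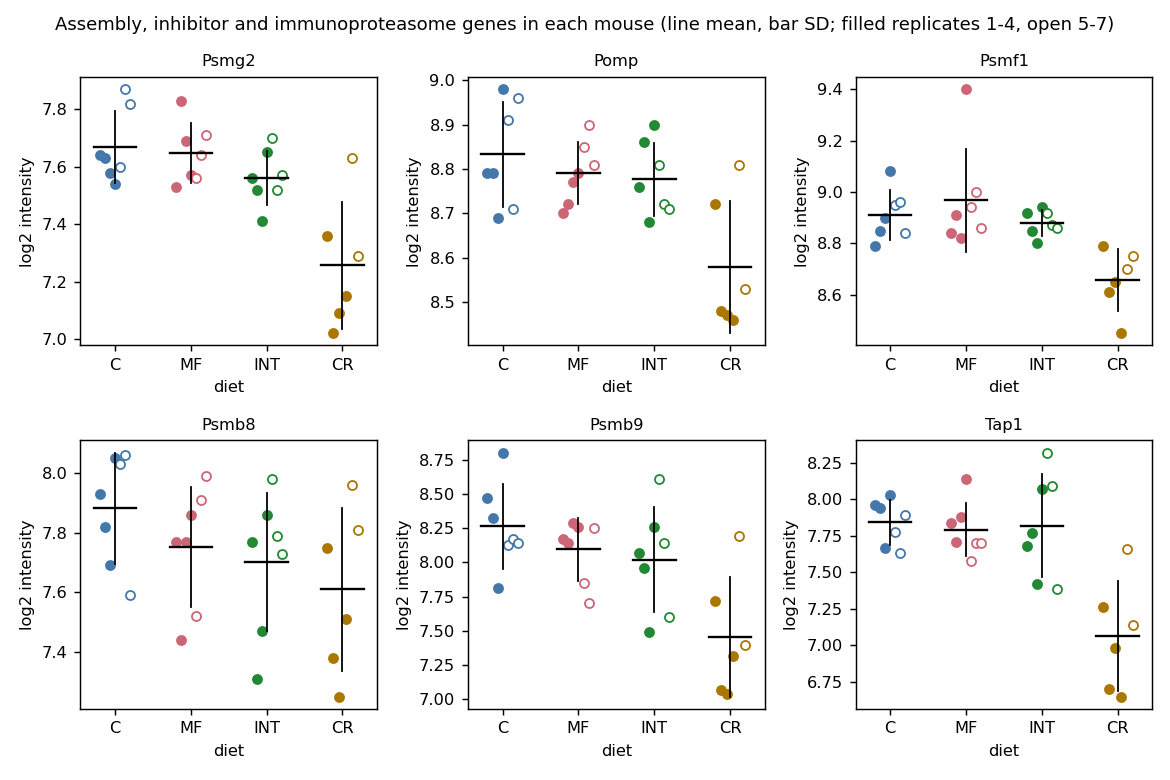
Log2 intensity (y axis) of Psmg2, Pomp, Psmf1, Psmb8, Psmb9 and Tap1 in each mouse by diet (x axis), with means (lines) and SD (bars). Filled points are replicates 1 to 4 and open points 5 to 7: most CR-fed mice lie low in each panel except that of Psmb8, and 1 open CR point (replicate 5) lies high for Psmg2, Pomp, Psmb8, Psmb9 and Tap1.

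Some markers of other cells were called in CR-fed mice as well, and their part in these results was not tested. Over all genes tested, 8.46%, 8.57% and 6.62% were called higher in CR against C, MF and INT, and 9.05%, 11.2% and 8.37% lower. Against that background, 1 or 2 calls in a short list are not read as a change of a cell type. Of 10 macrophage and Kupffer cell genes, 2 (Clec4f and Csf1r) were higher in CR than in C, 3 than in MF and 6 than in INT, and none was lower. The summed log2 level of the list lay between 12.22 and 12.83 in CR, 12.05 and 12.67 in C, 11.78 and 12.47 in MF and 11.63 and 12.19 in INT. Of 7 T, NK and B cell genes, 1 (Cd4) was lower against C and INT, with summed levels of 7.68 to 8.01 in CR and 7.74 to 8.36 in C. Of 8 interferon response genes, Irf7 was higher (0.70, 0.61 and 0.84) and Ifit1 lower (-0.95, -1.04 and -0.89) in CR against C, MF and INT, and the other 6 were not called. The summed level of that list was 10.1 to 11.2 in CR and 10.4 to 11.2 in C. In CR against C, 0 of 5 dendritic cell genes and 0 of 7 stellate cell and fibroblast genes were called (0 with an unadjusted p under 0.05 in both lists), 2 of 7 endothelial genes (Kdr, Oit3) and 2 of 4 cholangiocyte genes (Krt7, Sox9) were higher, and the 1 erythroid gene, Alas2, was lower. Of the 7 endothelial genes, 2 were below 0 in CR against C, the lowest at -0.60. Lyve1, another of them, was called lower in CR against MF (-0.77, limma adjusted p = 0.0316). In the hepatocyte list, Cps1 and Tat were higher and Cyp2e1 lower in each comparison with CR.

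Nfe2l1, the regulator of the subunit genes, was not called. Its log2 difference was -0.20 ± 0.09 (SE) in CR against C (adjusted p = 0.146), -0.26 against MF (adjusted p = 0.0505) and -0.11 against INT (adjusted p = 0.487), and its values were 9.30 to 9.46 in CR inside the 9.18 to 9.86 of C. Nfe2l1 was called lower in CR against MF in 7 of 14 other settings, among them the block on the replicate number (adjusted p = 0.0194) and the fit of the 2 diets (adjusted p = 0.0110), and in 7 of the 27 fits without 1 mouse (adjusted p from 0.0253). It was called against C without C replicate 6 (adjusted p = 0.0332). In INT against C, INT against MF and MF against C it was -0.09, -0.15 and 0.06. In its list of 6, Syvn1, the ubiquitin ligase of endoplasmic reticulum degradation, fell by 0.44 against C (SE 0.14, adjusted p = 0.0315) and by 0.53 against MF (adjusted p = 0.00914), with no overlap between the mice of the groups (8.49 to 8.84 in CR, 8.93 to 9.58 in C, 8.90 to 9.81 in MF). The call of Syvn1 against C was lost without any 1 of C replicates 6 or 7 or CR replicates 1, 3 or 5 (adjusted p up to 0.0752) and with the replicate number as a block (adjusted p = 0.0641).

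The remaining lists held scattered calls. Of 7 VCP cofactors, Ubxn4, which anchors VCP at the endoplasmic reticulum, fell by 0.34 (adjusted p = 0.00192), 0.38 (adjusted p = 0.000685) and 0.30 (adjusted p = 0.00644) against C, MF and INT, Nsfl1c fell against MF by 0.15 and Ubxn1 against INT by 0.19. Of 9 COP9 signalosome genes, a complex built like the 19S lid, Cops2 fell by 0.18, 0.19 and 0.18, Cops8 against MF by 0.20 and Cops7b against INT by 0.35. The calls of Cops2 against C, MF and INT were lost in 8, 3 and 9 of the 27 fits without 1 mouse (adjusted p up to 0.101, 0.0742 and 0.114), that of Cops8 in 3 (up to 0.0921), that of Ubxn1 in 13 (up to 0.106) and that of Nsfl1c in 3 (up to 0.0577). The 1 measured gene of ubiquitin activation, Uba6, fell against MF by 0.21 (adjusted p = 0.0344), a call lost in 6 of the 27 fits (adjusted p up to 0.0897). None of the 8 receptors, shuttles and deubiquitinases at the 19S was called in limma (0, 2 and 0 with an unadjusted p under 0.05 in CR against C, MF and INT). Of 7 NRF2 targets, Nqo1, a quinone reductase, rose by 0.74 against C and by 1.06 against INT (SE 0.24, adjusted p = 0.0313 and 0.00254), and Gclc, an enzyme of glutathione synthesis, rose by 0.31 against C (adjusted p = 0.0481). Of 7 HSF1 targets, Hspa8, a chaperone, fell by 0.22 against C and by 0.21 against MF (adjusted p = 0.0301 and 0.0324), and Hsp90aa1 fell by 0.40 against MF (adjusted p = 0.0335). Without 1 mouse the call of Gclc was lost in 20 of 27 fits (adjusted p up to 0.133), that of Nqo1 against C in 8 (up to 0.0764), those of Hspa8 against C and MF in 4 and 6 (up to 0.0944 and 0.102) and that of Hsp90aa1 in 5 (up to 0.101).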

How the data were processed

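The authors labelled 100 ng of liver RNA per mouse, hybridized it to Affymetrix Mouse Gene 1.1 ST arrays and normalized the 27 arrays together by RMA (robust multiarray average, the tool in the submitters' processing notes). The deposited values are log2 intensities per probe set, background-corrected and quantile-normalized. Although per the methods probes were regrouped by Entrez gene, the table holds the 35556 probe sets of the maker. These were linked to genes by the annotation of the array (21218 name 1 gene, 1881 several and 12457 none), with current symbols from a RefSeq gene table (GRCm38.p6) for 18790 of 18820 genes, and the probe set of highest mean was kept per gene. No array was a copy of another.

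Groups came from the diet labels. The 6 comparisons were fitted in R 4.3.3 with limma 3.58.1 (1 mean per diet, empirical Bayes variances without trend or robust options) over all 27 arrays and the 13603 genes whose intensity passed 20 on 5 or more arrays, with Benjamini-Hochberg adjustment over all genes and a threshold of 0.05. Differences are the first group minus the second. The labels name single mice but no cage or litter, so p-values measure the spread between these mice. Per the methods, each mouse was housed alone from the start of the diets and in a pair before that. The methods name no test across genes. Tukey's test, which they use for single measures, was an alternative, as were cyclic loess, median centring, other intensity minimums, the mean of all probe sets, array weights, array set or replicate number as a block, fits of 2 diets, fits within an array set, and each mouse left out. The code was tested on simulated data. The named genes were Psmb5, Psmb6 and Psmb7, Psmb8, Psmb9 and Nfe2l1 in each comparison, called genes, and the 2 of smallest p where no proteasome gene was called. Other members are given with their values to describe their role, chosen after the values were seen. The proteasome genes, pathway lists and marker lists were chosen with earlier results of these data known. Arrays carry no read depth, and the number of mice limits the precision. Tables were handled in Python 3.11.15 (pandas 2.3.3, numpy 2.4.6, scipy 1.17.1), and figures drawn with matplotlib 3.10.9.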

Additional observations from a re-analysis of the deposited data

Results flagged for a closer look

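In 5 of the 168 groups of mice examined (42 genes in 4 diets), 1 mouse stood apart from the other mice of its diet by Dixon's test, where chance alone gives about 1 in 20. All 5 lie within members that were not called. Psmc3, a base ATPase, was at a log2 intensity of 8.03 in MF replicate 3, with the nearest MF mouse at 8.26. Psmd2, a 19S scaffold subunit, was at 9.85 in MF replicate 4, with the nearest at 10.03. Psmd5, a base chaperone, was at 8.70 in MF replicate 6, with the nearest at 8.42. Psmd7, a lid subunit, was at 8.97 in C replicate 4, with the nearest at 9.28. Psmd8, another lid subunit, was at 10.05 in INT replicate 5, with the nearest at 10.28.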

How the results depend on the processing

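Apart from the fits within an array set and the losses on leaving out a mouse given above, Psme3 was called against C, MF and INT under every alternative run, and Psme1 under all but the fit of the CR and MF mice alone. The count of called proteasome genes in CR against C was 5 with array weights, 5 at a mean intensity above 50 (39 genes tested) and 5 by Tukey's test, each time with Psma6 and Psmb1 lower and Psmc5 higher added. In CR against MF it was 4 with array weights, 4 by Tukey's test and 1 in the fit of the 2 diets. In CR against INT it was 5 by Tukey's test, and in INT against MF 1. Within replicates 1 to 4 it was 0, 0 and 1 and within 5 to 7 it was 0, 0 and 0 in CR against C, MF and INT, with fewer mice in each fit. Leaving out 1 mouse gave 2 to 5, 2 to 6 and 1 to 5 called genes. The high ends came without CR replicate 5: Psma6, Psmb1 and Psmc3 joined against C, Psmc6, Psmd1, Psmd10 and Psmd14 against MF, and Psma6 and Psmc6 against INT. The count of 1 came without CR replicate 2, CR replicate 4 or INT replicate 5. Psmd3 against INT was also lost with cyclic loess, median centring, no minimum and the fit of 2 diets. For the pathway lists, within replicates 1 to 4 the counts were 4, 7 and 3 and within 5 to 7 they were 2, 0 and 1, and leaving out 1 mouse (added after seeing the data) gave 8 to 13, 12 to 17 and 7 to 13, with 8 without C replicate 7 and the lowest against INT without CR replicates 2, 3 or 6 or INT replicate 5. The causes were not tested. Over 39 pairs of different diets with the same replicate number the mean correlation of deviations was 0.0696, the lowest -0.249, and 17 were above 0.1. Over 234 pairs with different replicate numbers the mean was -0.0114, and 51 were above 0.1. Same-numbered mice thus deviated together slightly more than others, and whether the replicate number pairs the mice was not tested. Same-numbered mice also share an array set, while the other pairs mix the sets. The comparison therefore cannot separate pairing from array set. With the replicate number as a block the called proteasome genes numbered 2, 2 and 3, and with the number in the mouse identifier (mean correlation 0.00500 over 39 pairs) as a block 3, 2 and 3, with Psmc5 added against C. In the pathway lists the replicate number as a block lost Cops2, Gclc and Syvn1 against C and Cops2 and Ubxn1 against INT and added Nfe2l1 and Ube3c against MF, and the mouse number as a block lost Hspa8 against C, Hspa8 and Hsp90aa1 against MF and Psmf1 and Ubxn1 against INT and added Cops7b and Ube3c against MF.

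Differences near 0 changed sign in uncalled genes, 13 times outside the single-mouse fits. Within replicates 1 to 4, Psmb5 gave 0.0425 in CR against C, -0.0309 in CR against INT and 0.0733 in INT against C. Within replicates 5 to 7 in MF against C, Psmb5 gave -0.0488, Psmb6 0.0153 and Psmb7 0.0244. Also within 5 to 7, Psmb8 gave 0.0822 in CR against MF, 0.0577 in CR against INT and 0.0246 in INT against MF, and Psmb9 gave 0.186 in INT against MF. With array weights, Psmb5 gave -0.0027 in CR against INT, and Psmb6 0.0387 and Psmb7 0.0128 in MF against C. Leaving out 1 mouse turned 20 further values, and over these fits Psmb5 ran from -0.0435 to 0.0137 in CR against C, -0.009 to 0.0218 in CR against INT and -0.049 to 0.00819 in INT against C. Psmb6 ran from -0.0287 to 0.0347 in CR against INT and -0.0561 to 0.0189 in MF against C, and Psmb7 from -0.0533 to 0.028 in MF against C. In INT against MF, Psmb8 ran from -0.103 to 0.0141 and Psmb9 from -0.176 to 0.0108, and Nfe2l1 in MF against C from -0.0085 to 0.106.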

Other observations

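CR replicate 5 differed from the other CR-fed mice in the genes described here. Over the 30 subunit genes it had the highest value of the 6 CR-fed mice for 17 genes and the lowest for 0, while CR replicate 4 had the lowest for 14 and the highest for 5. Over Pomp, Psmg2, Psmf1, Psmb8, Psmb9, Tap1 and Tap2 it had the highest value for 6 of 7. In Psme3 it was the lowest CR-fed mouse (9.33) and in Psme1 it was inside the range of the others (9.45). It belongs to replicates 5 to 7, which hold 2 CR-fed mice, and the part of the array set in these values was not tested. In the other diets the highest values over the 30 subunit genes were spread over more mice. The largest counts were 12 of 30 genes (C replicate 7), 11 of 30 (MF replicate 5) and 10 of 30 (INT replicate 1). Over the 7 genes from Pomp to Tap2, C replicate 4 had the highest value of its diet for 5 and INT replicate 5 for 4. INT replicate 3 had the lowest for 5.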
